A study of Mus musculus with 5 samples.

Results

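The genes described here were the 8 collagen genes *Col1a1*, *Col1a2*, *Col3a1*, *Col5a1*, *Col5a2*, *Col6a1*, *Col6a2* and *Col6a3*, taken by name from the 22146 genes of 5 mouse single-cell libraries, and all 8 were found. Their raw counts of unique molecular identifiers (UMIs, each marking a captured RNA molecule) were read in every cell that had at least 500 genes and at most 15% mitochondrial counts. No measured value of these genes entered the rule of choice, but earlier results of these data were known.

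Fibrillar collagens are rope-like trimers that give connective tissue its tensile strength. *Col1a1* and *Col1a2* encode the chains of type I collagen, the main fibril of most connective tissue, in which the *Col1a1* product is present in more copies than the *Col1a2* product. *Col3a1* encodes type III collagen, which is plentiful in distensible organs such as the gut, and *Col5a1* and *Col5a2* encode type V collagen, which starts and limits the width of type I fibrils. *Col6a1*, *Col6a2* and *Col6a3* encode the chains of type VI collagen, a network of beaded filaments around cells and basement membranes. In the colon these genes are known mainly from the fibroblasts, telocytes, myofibroblasts and pericytes of the stroma.

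The study followed colon tumors of wildtype mice made with azoxymethane and dextran sodium sulfate (AOM/DSS), a mutagen followed by an agent that inflames the colon. The 4 tumor libraries all came from mice given irinotecan and 5-FU (5FU+Irinotecan in the labels) and were taken at day 1, with replicates 1 and 2, at day 3 and at day 6, with no untreated tumor library among the 5 libraries. The other library came from untreated wildtype colon and was prepared to enrich the stroma, by removing the crypts and digesting what was left. The tumors were instead digested with collagenase and the cell clumps held back by a filter were kept, so tumor, drug, dissociation and animal cannot be told apart between the tumor libraries and the normal library. The mice were, per the study's methods, of a C57BL/6J or a mixed background, and neither their number per library nor their strain or age is given in the labels. The libraries of day 1 replicate 2, day 6 and the normal stroma had a dual index, while those of day 1 replicate 1 and day 3 had a single index and were read on another sequencer, so the effect of the index and that of the sequencer cannot be told apart.

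The files held 752 to 2830 cell barcodes and 5132360 to 16904947 UMIs per library, and 8491 cells were kept, with medians of 2903 to 3601 UMIs per cell. Each pair of libraries shared 4 to 41 barcodes, at most 2.47% of the smaller one. Cells were clustered without any collagen gene and named from marker genes, which gave 133 cells like cancer-associated fibroblasts (CAF-like) in the tumors and 100 telocyte-like, 264 fibroblast-like, 26 pericyte-like and 74 myofibroblast-like cells in the normal stroma. CAFs are the fibroblasts of a tumor, telocytes are the signalling fibroblasts under the epithelium, myofibroblasts are contractile cells, and pericytes wrap small vessels. The CAF-like cells numbered 14 and 39 at day 1, in replicates 1 and 2, 27 at day 3 and 53 at day 6.

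On the GRCm38 build *Col1a1* lies at chr11:94936224-94953042 and *Col1a2* at chr6:4505618-4541543. *Col3a1* (chr1:45311538-45349706, plus strand) and *Col5a2* (chr1:45374331-45503282, minus strand) are neighbours 24.6 kb apart, and *Col6a2* (chr10:76595756-76623630) and *Col6a1* (chr10:76708792-76726044), both on the minus strand, are neighbours 85.2 kb apart, each pair with 0 protein-coding genes between. *Col5a1* lies at chr2:27886381-28039510 and *Col6a3* at chr1:90766860-90844001. Exons of *Col5a1* overlap *2810430I11Rik* and *Gm13372* on the other strand, and an exon of *Col3a1* overlaps the miRNA gene *Gm47302*. Whether the counting used strand is not given in the sources used here, so reads of such overlaps cannot be told apart.

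The levels given below move together across cell types, and the 120 bases before the start were therefore read in RefSeq (GRCm38.p6) for the 6 members in its promoter table. The starts are those of the promoter table and not always the gene ends given above. The windows of *Col6a3* and *Col5a1* (chr2:27886305-27886424) reach into the genes as placed above. The windows of *Col1a2*, *Col3a1*, *Col6a1* and *Col6a3* (chr6:4505498-4505617, chr1:45311418-45311537, chr10:76726045-76726164 and chr1:90843972-90844091) are shown 5′ to 3′ on the strand of the gene, to set the type I, type III and type VI chains side by side, with motif matches in capitals.
Col1a2: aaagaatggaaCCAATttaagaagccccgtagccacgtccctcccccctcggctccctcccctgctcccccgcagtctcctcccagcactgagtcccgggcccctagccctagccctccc
Col3a1: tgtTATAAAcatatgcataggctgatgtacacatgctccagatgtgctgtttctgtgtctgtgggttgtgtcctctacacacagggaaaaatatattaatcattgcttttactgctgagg
Col6a1: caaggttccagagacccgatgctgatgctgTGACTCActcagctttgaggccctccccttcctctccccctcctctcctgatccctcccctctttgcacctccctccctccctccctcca
Col6a3: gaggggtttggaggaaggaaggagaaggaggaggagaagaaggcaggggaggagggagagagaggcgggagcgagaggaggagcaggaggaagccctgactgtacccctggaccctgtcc

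The motifs were searched on both strands, as the TATA box (TATAAA), the CCAAT box (CCAAT), the GC box (GGGCGG) and the AP-1 site (TGANTCA). *Col1a2* held a CCAAT box 109 to 105 bases before its start, as did 21.3% of 32851 promoter windows of the same length. *Col3a1* held the letters of a TATA box 117 to 112 bases before its start (6.34% of windows). *Col6a1* held those of an AP-1 site 90 to 84 bases before its start (3.41%), and *Col6a3* held none of the 4. All of these are matches of letters, and their use as promoter elements was not tested. *Col5a1* held a GC box 73 to 68 bases before its start (26.5%), and 1 of 2 windows of *Col6a2* held 3 GC boxes, of which 2 overlap. That window (chr10:76623405-76623524) lies inside the gene as placed above, and the window before the gene as placed held none of the 4 motifs. No motif was shared by all of the windows.

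The CAF-like cells of the 4 libraries were unlike each other. Clustered again by themselves they held 26 cells like CAF2, a CAF type of these tumors, led by *Ptgs2*, *Cxcl2* and *Mmp13*, of which 21 came from day 1 replicate 2. They also held 33 fibroblast-like cells, 29 of them from day 6 and 4 from day 1 replicate 1, 12 myofibroblast-like cells led by *Hhip* and *Myh11* together with the antibody genes *Jchain* and *Igha*, 11 of them from day 6, and 9 pericyte-like cells led by *Rgs5*, all from day 1 replicate 2. The other 53 cells got no name, and they included 26 of the 27 cells of day 3. The summed level of 8 columnar epithelial markers in CAF-like cells was 3887 and 2461 counts per 1000000 UMIs (CPM) at day 1, in replicates 1 and 2, 6794 at day 3 and 4804 at day 6, with 7 of 8 markers found in the first library and 8 of 8 in the others, against 602 CPM in normal fibroblast-like cells. The 7 goblet cell markers summed to 5332, 1275, 3002 and 2443 CPM in the same libraries, highest in day 1 replicate 1, against 398 in normal fibroblast-like cells. The 9 squamous markers summed to 1323, 774, 3560 and 3175 CPM, highest at day 3, against 39.7. Columnar cells of these libraries had 15278, 14891, 12949 and 17995 CPM of the columnar markers. They had 4116, 1631, 1760 and 2612 CPM of the goblet and 1887, 1532, 2771 and 2936 CPM of the squamous markers. The 17 CAF markers summed to 11194, 13216, 5992 and 13247 CPM in CAF-like cells. Only at day 3 were they below the columnar sum, so the name CAF-like is least sure there. The part of other cell types and of epithelial RNA in the collagen values below was not tested.

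*Col1a1* and *Col1a2*, the type I chains, were found in every CAF-like sum and spread widely between libraries. *Col1a1* stood at 10522 CPM (95% counting interval 9635 to 11469.6) at day 1 replicate 1, 2436 at day 1 replicate 2, 1745 at day 3 and 2144 at day 6, which is 6.03 times from lowest to highest. In the normal stroma *Col1a1* was at 4231 CPM in telocyte-like, 3444 in fibroblast-like, 954 in pericyte-like and 617 in myofibroblast-like cells. Only day 1 replicate 1 was above the normal fibroblast-like and telocyte-like levels, and the other 3 tumor libraries lay between those and the pericyte-like level. A single cell held 266 of the 517 *Col1a1* counts of day 1 replicate 1, 51.5%, and the level was 5577 CPM without it. At day 3 a single cell held 44.7% of the counts, and the level was 995 CPM without it.

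*Col1a2* was at 5984 CPM at day 1 replicate 1, 929.9 at day 1 replicate 2, 1222 at day 3 and 4339 at day 6. Its normal levels were 9008 CPM in telocyte-like, 6379 in fibroblast-like, 1504 in pericyte-like and 2074 in myofibroblast-like cells. All 4 tumor libraries were thus below the telocyte-like level, and 3 of 4 were below the fibroblast-like level, from which day 1 replicate 1 did not differ beyond the counting intervals. The order of the levels put day 1 replicate 2 below even the pericyte-like cells, from which day 3 did not differ beyond the counting intervals.

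*Col3a1* followed the order of *Col1a2* except for its lowest library. It stood at 5516 CPM at day 1 replicate 1, 1397 at day 1 replicate 2, 500.3 at day 3 and 3888 at day 6, the widest range of the 8 genes at 11.0 times. The normal cells had 5852 CPM in telocyte-like, 6559 in fibroblast-like, 1460.2 in pericyte-like and 2569 in myofibroblast-like cells. Day 1 replicate 2 and the normal pericyte-like cells did not differ beyond their counting intervals, and day 3 was below every normal type.

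The type V chains had lower counts and moved apart from each other. *Col5a1* was at 814, 387, 314 and 534 CPM in CAF-like cells of day 1 replicate 1, day 1 replicate 2, day 3 and day 6, against 653 in telocyte-like, 607 in fibroblast-like, 188 in pericyte-like and 165 in myofibroblast-like cells. A single cell held 15 of the 40 *Col5a1* counts of day 1 replicate 1, and the level was 529.95 CPM without it, below the telocyte-like and fibroblast-like levels. *Col5a2* was at 896, 1351, 233 and 573 CPM in the same tumor libraries, against 799, 667, 304 and 340.0 in the normal types in that order. *Col5a2* was the one fibrillar chain whose highest tumor library was day 1 replicate 2, and a single cell held 65% of its 20 counts at day 3, which left 84.8 CPM without that cell.

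*Col6a1* and *Col6a2*, the short chains of type VI collagen, varied least between tumor libraries. *Col6a1* was at 1139.7, 749, 698 and 1387 CPM in CAF-like cells of day 1 replicate 1, day 1 replicate 2, day 3 and day 6, against 4423 in telocyte-like, 2149 in fibroblast-like, 1012 in pericyte-like and 1268 in myofibroblast-like cells. *Col6a2* was at 1201, 547, 1082 and 973 CPM in the tumor libraries, and at 3913, 1796, 622 and 981 in the normal types in that order. Telocyte-like cells led for both genes, fibroblast-like cells came next, and each tumor library was below both.

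*Col6a3*, the long chain of type VI collagen, gave few counts. It was at 61.1 CPM from 3 counts at day 1 replicate 1, 219 at day 1 replicate 2, 69.8 from 6 counts at day 3 and 102 at day 6. The normal levels were 80.6 CPM in telocyte-like, 33.1 in fibroblast-like, 43.4 in pericyte-like and 24.3 in myofibroblast-like cells. Without the cell richest in counts *Col6a3* was at 36.2 CPM at day 3 and at 14.6 in the pericyte-like cells, which gave 3 counts. Day 1 replicate 2, with a counting interval of 163 to 287 CPM, was above all 4 normal types, and no neighbours in the order of its 8 levels differed beyond their intervals.

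The background of free RNA was read in columnar epithelial cells, which should make none of these collagens. Across the 8 genes the columnar cells of the tumors gave 0 to 11.3 CPM, and those of the normal stroma 0.963 CPM for *Col6a3* to 93.1 CPM for *Col1a2*. Subtracting the columnar level of the same library left 64 of 64 levels inside their counting intervals. The levels subtracted were small beside the stromal levels. A lowering of collagen CPM by epithelial RNA in the CAF-like cells cannot be seen in this way. All intervals here cover counting error only.

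**Figure D1:**
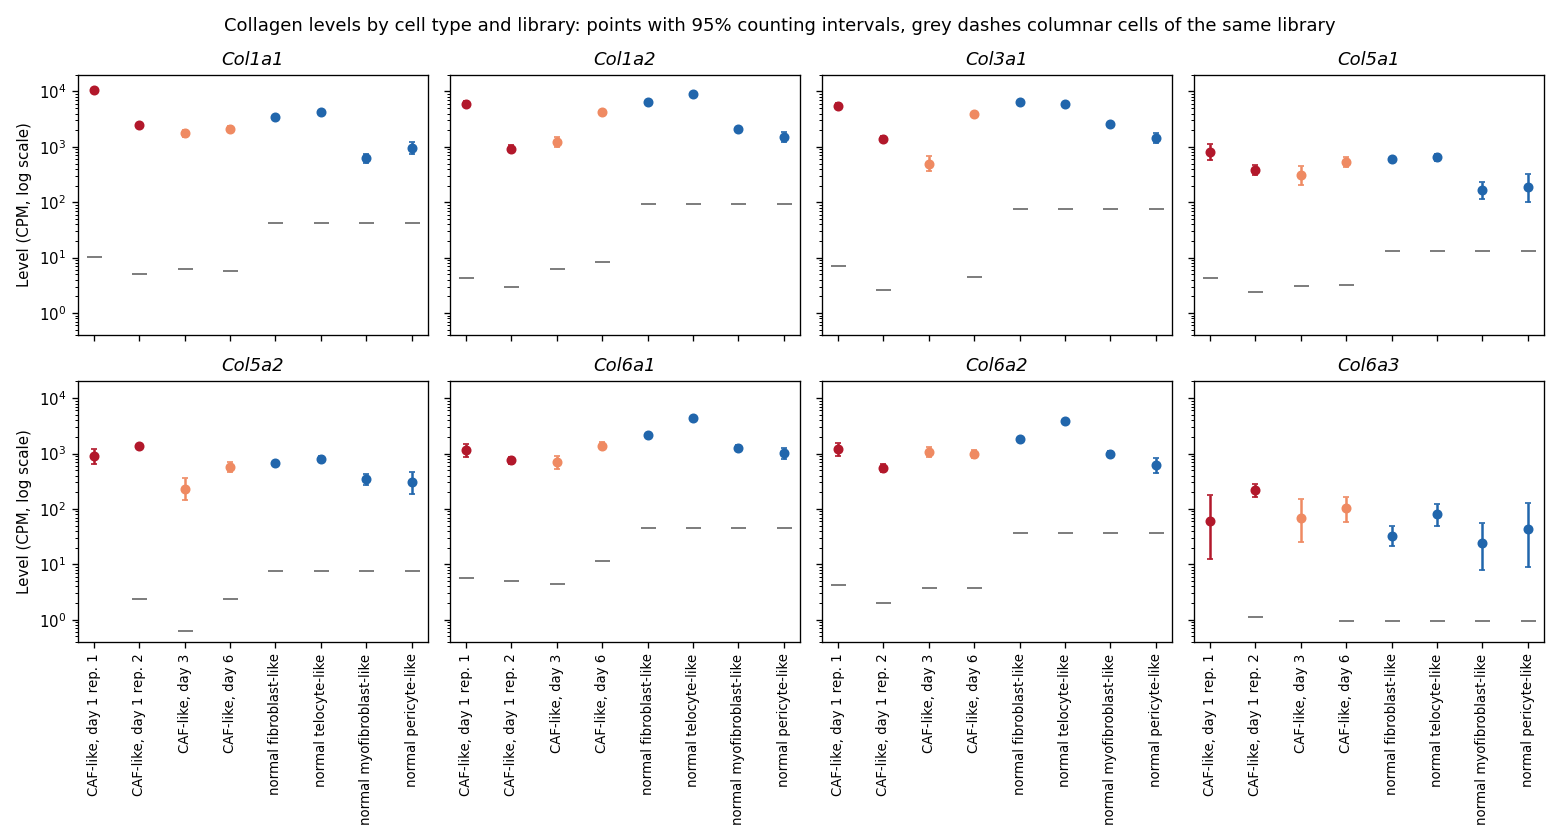
Each panel plots the level of 1 collagen gene in CPM (log axis) for CAF-like cells of the 4 tumor libraries and for 4 mesenchymal cell types of the normal stroma, with exact 95% counting intervals and grey dashes for columnar cells of the same library. The tumor points spread most for *Col3a1*, from 500.3 to 5516 CPM, and least for *Col6a1*, from 698 to 1387 CPM, and every point lies above its grey dash.

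The genes were also unevenly spread over single cells in the tumors. Together the 8 genes took 2.61% of all UMIs of CAF-like cells at day 1 replicate 1, 0.802% at day 1 replicate 2, 0.586% at day 3 and 1.39% at day 6. They took 2.90% in telocyte-like, 2.16% in fibroblast-like, 0.609% in pericyte-like and 0.804% in myofibroblast-like cells. The median cell, however, had 2.04%, 0.276%, 0.222% and 1.07% in the 4 tumor libraries, and 2.06% and 2.73% in normal fibroblast-like and telocyte-like cells, so the sums of day 1 replicate 2 and day 3 stood on few cells.

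After each cell was thinned to 1000 UMIs, 18.6% of the CAF-like cells had no UMI of any of the 8 genes, against 0.427% of fibroblast-like cells and 0 of 91 telocyte-like cells. By library the share was 28.6% and 23.1% at day 1, 25.9% at day 3 and 8.16% at day 6. *Col1a2* was seen in 57.1%, 46.2%, 37.0% and 79.6% of the thinned CAF-like cells of day 1 replicate 1, day 1 replicate 2, day 3 and day 6, in 100.0% in telocyte-like, 98.7% in fibroblast-like, 57.1% in pericyte-like and 84.1% in myofibroblast-like cells. In columnar cells, thinned alike, it was seen in 0.694% to 1.41% of the tumor cells and in 7.79% of the normal cells.

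**Figure D2:**
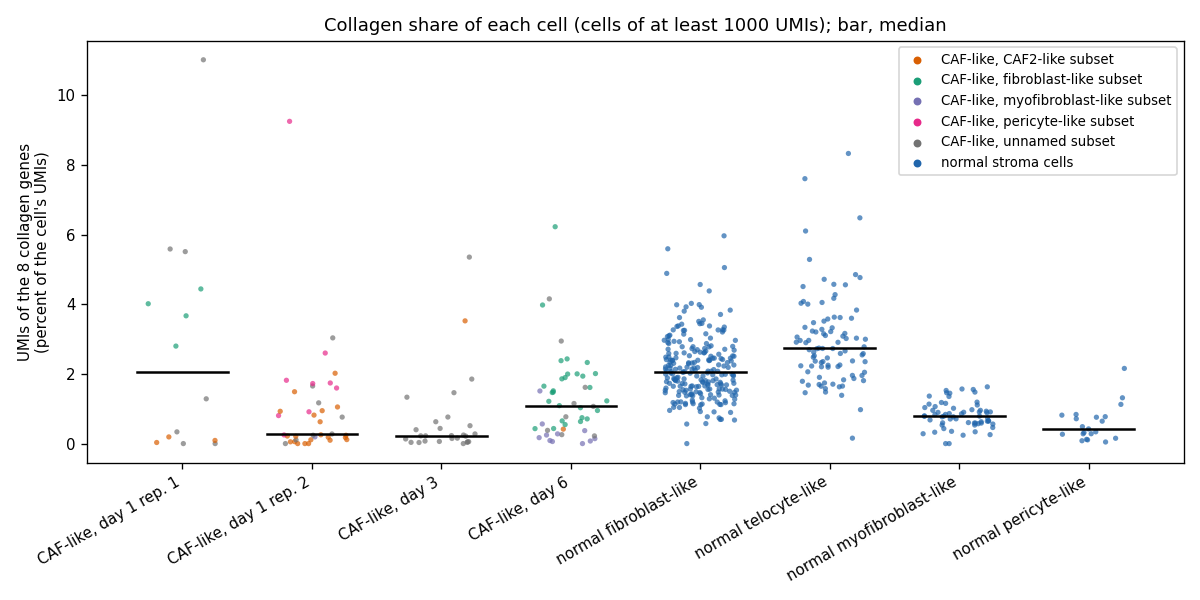
Each point is 1 cell and gives the share of its UMIs, in percent, that came from the 8 collagen genes, by cell type and library. The CAF-like cells of day 1 replicate 2 and day 3 cluster near 0, with medians of 0.276% and 0.222%, with a few cells far above them, while fibroblast-like cells center on 2.06%.

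The collagen levels differed between the subsets of the CAF-like cells, which were pooled over the tumor libraries and are given as a description with no test. Fibroblast-like tumor cells had 3538 CPM *Col1a1*, 6322 *Col1a2* and 5811 *Col3a1*, each pooled over libraries that were unlike. The 29 cells of day 6 had 2540.5 CPM *Col1a1*, 5686 *Col1a2* and 5034 *Col3a1*, and the 4 cells of day 1 replicate 1 had 10340.0, 10657 and 11101 CPM, above the normal fibroblast-like levels for all 3 genes. CAF2-like cells had 1303 CPM *Col1a1*, 687 *Col1a2* and 781 *Col3a1*, but 1223 CPM *Col5a2*. Their *Col1a1* level was below that of every other subset but the myofibroblast-like one, and *Col1a1* was not among the markers behind the name CAF2-like. The 9 pericyte-like tumor cells of day 1 replicate 2 had 6943 CPM *Col1a1* (6148 to 7812), against 954 CPM (738 to 1214) in the 26 pericyte-like cells of the normal stroma, and also 1937 CPM *Col5a2* and 352 CPM *Col6a3*. A single cell held 37.7% of those *Col1a1* counts, which left 4535 CPM without it, and 7 of the 14 *Col6a3* counts, which left 207.5 CPM.

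Myofibroblast-like tumor cells had 412 CPM *Col1a1*, 1030.1 *Col1a2* and 1483 *Col3a1*, all from 36 or fewer counts, and 30 of the 36 *Col3a1* counts were from 1 cell. The unnamed cells had 4488 CPM *Col1a1* and 1383 CPM *Col3a1*. Of their 584 *Col1a1* counts 266 were from 1 cell of day 1 replicate 1, and the level was 2524 CPM without it. By library their *Col1a1* level ran from 1332 CPM in the 26 cells of day 3, or 537 without the richest cell, to 24129 CPM in 7 cells of day 1 replicate 1, or 8160 without the richest cell. Among the pooled subsets, *Col1a1* without the richest cell was above the normal fibroblast-like level of 3444 CPM in pericyte-like cells alone. *Col5a2* was above its normal fibroblast-like level beyond the counting intervals in CAF2-like and pericyte-like cells.

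The split into subsets depended on how finely the cells were grouped. Grouped more coarsely, all 26 CAF2-like and all 9 pericyte-like cells fell into 1 group of 36 cells, which was named from pericyte markers. No coarse group was CAF2-like, so the name CAF2-like held at the finer grouping alone. Of the 33 fibroblast-like cells 20 formed a group of their own, while the other 13 joined the 12 myofibroblast-like and 16 unnamed cells in a group of 41 that was led by *Igha*, *Jchain* and *Enpp2* and named from myofibroblast markers.

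**Figure D3:**
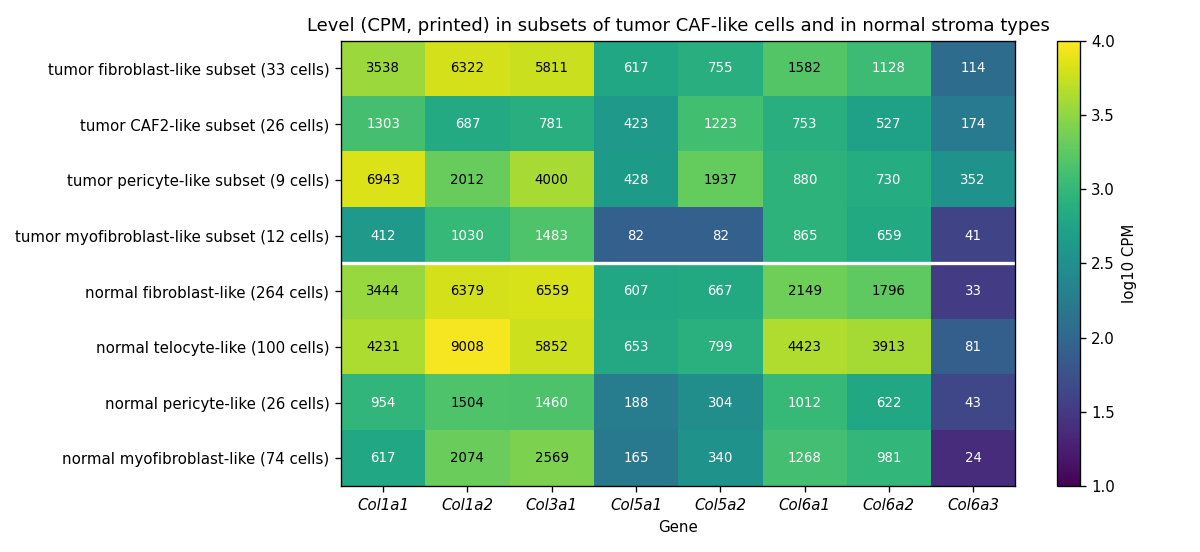
Heat map of the levels of the 8 collagen genes in CPM (printed, colored on a log scale). Rows are the named subsets of the CAF-like cells, pooled over the tumor libraries, and the mesenchymal types of the normal stroma. Among the tumor subsets shown, pericyte-like cells are highest for *Col1a1* at 6943 CPM and *Col5a2* at 1937 CPM. Fibroblast-like tumor cells are the highest of these subsets for *Col1a2* at 6322 CPM, below the 9008 CPM of normal telocyte-like cells.

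The balance of the chains was compared between cell types as ratios of UMI counts. UMIs are counted near the 3′ end of a transcript and were not divided by length, and since genes can be captured unequally, a ratio is compared between cells and not read as a ratio of molecules. *Col1a1* counts per *Col1a2* count were 1.76 (95% interval 1.52 to 2.04) at day 1 replicate 1, 2.62 (2.24 to 3.07) at day 1 replicate 2, 1.43 (1.11 to 1.85) at day 3 and 0.494 (0.432 to 0.564) at day 6. They were 0.470 in telocyte-like, 0.540 in fibroblast-like, 0.635 (0.459 to 0.872) in pericyte-like and 0.297 in myofibroblast-like cells.

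The 3 tumor libraries of day 1 and day 3 were above all normal types, and day 6 was among them. Single cells gave the same picture: among cells with at least 5 counts of the pair, more *Col1a1* than *Col1a2* was counted in 6 of 8, 15 of 20, 6 of 9 and 8 of 36 CAF-like cells of day 1 replicate 1, day 1 replicate 2, day 3 and day 6. It was so in 9 of 96 telocyte-like, 31 of 253 fibroblast-like, 2 of 8 pericyte-like and 2 of 38 myofibroblast-like cells. Without the cell richest in counts the 4 tumor ratios were 1.27, 2.39, 1.17 and 0.497.

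The ratio moved with the subset as well as with the library. It was 3.45 (2.68 to 4.48) in pericyte-like, 2.15 (1.86 to 2.49) in unnamed and 1.90 (1.55 to 2.33) in CAF2-like tumor cells, but 0.560 (0.497 to 0.630) in fibroblast-like and 0.40 (0.171 to 0.862) in myofibroblast-like tumor cells. Within day 6 it was 0.447 (0.386 to 0.516) in fibroblast-like and 1.22 (0.770 to 1.93) in unnamed cells, and within day 1 replicate 1 it was 0.970 (0.777 to 1.21) and 2.81 (2.28 to 3.47). The subsets thus differed beyond counting error within each of these libraries, and the fibroblast-like cells differed between the libraries, on 4 cells at day 1 replicate 1. In columnar cells of the same libraries, which hold free RNA, *Col1a1* and *Col1a2* had 7 and 3 counts at day 1 replicate 1, 36 and 21 at day 1 replicate 2, 10 and 10 at day 3, 49 and 70 at day 6 and 129 and 290 in the normal stroma.

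Other chain ratios set day 1 replicate 2 apart. *Col5a1* counts per *Col5a2* count were 0.287 (0.225 to 0.362) in that library, against 0.909, 1.35 and 0.933 at day 1 replicate 1, day 3 and day 6 and 0.486 to 0.911 in the normal types. *Col6a3* counts per *Col6a1* count were 0.292 (0.210 to 0.40) there, against 0.0536, 0.10 and 0.0734 in the other tumor libraries and 0.0154 to 0.0429 in the normal types.

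*Col6a2* counts per *Col6a1* count lay between 0.614 and 0.885 in the normal types, and at 1.05, 0.730, 1.55 (1.11 to 2.18) and 0.702 in the tumor libraries, in the order day 1 replicate 1, day 1 replicate 2, day 3 and day 6. *Col3a1* counts per *Col1a2* count were 0.410 (0.28 to 0.589) at day 3, below the 0.896 to 1.5 of the other tumor libraries and the 0.650 to 1.24 of the normal types.

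**Figure D4:**
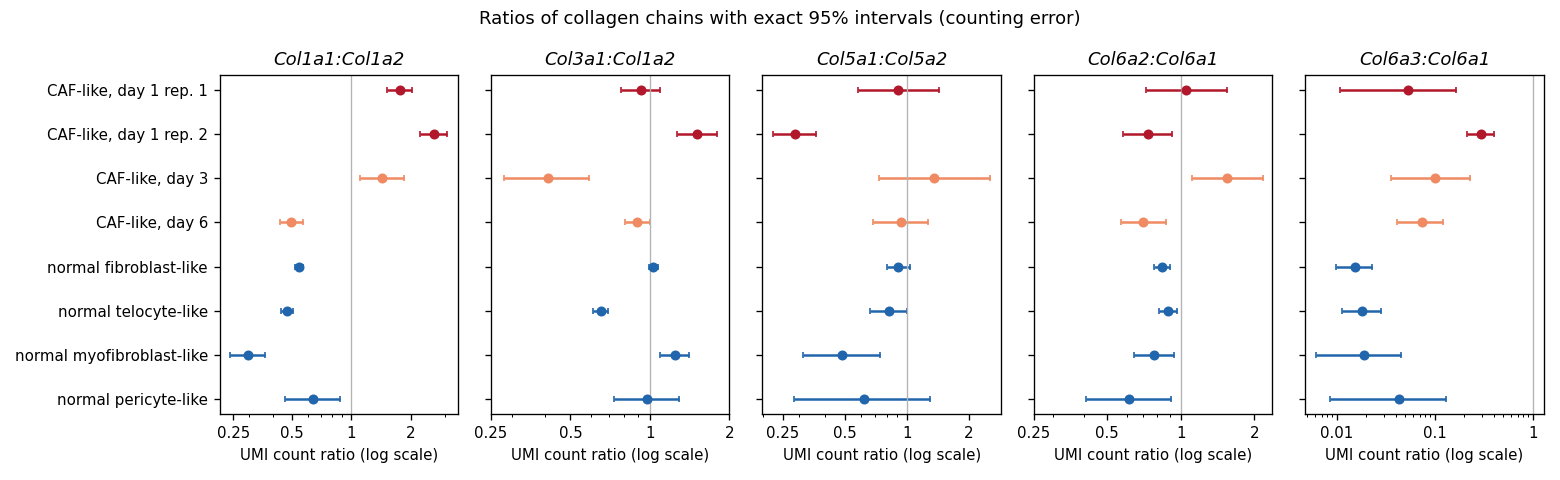
Ratios of UMI counts between collagen chains (log axes) with exact 95% counting intervals, for CAF-like cells of the 4 tumor libraries and 4 normal cell types. *Col1a1* to *Col1a2* lies above 1 at day 1 and day 3 and below 1 at day 6 and in all normal types, and the lowest *Col5a1* to *Col5a2* and the highest *Col6a3* to *Col6a1* are those of day 1 replicate 2.

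The question of a change with time after treatment was addressed by comparing the CAF-like sums of day 3 and day 6 with both sums of day 1. The 8 genes did not differ beyond the spread between libraries: edgeR called 0 of 8, against 0% of all genes (0 of 2864 tested, with 237 at an unadjusted p under 0.05), and DESeq2 also called 0 of 8. The largest differences were those of *Col1a1*, at a log2 fold change of -1.67 (95% interval -3.69 to 0.35, adjusted p = 0.692), and *Col5a2*, at -1.43 (-3.06 to 0.20, adjusted p = 0.679). The other 6 genes ran from -0.80 for *Col6a3* to 0.30 for *Col6a2*, and the median of the 8 was -0.49 against 0.02 over all genes.

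The lowest day 1 level and the highest later level were 2436 and 2144 CPM for *Col1a1*, and 896 and 573 CPM for *Col5a2*. The other genes overlapped between day 1 and the later days. How many of all genes did not overlap was not counted, so with so few libraries these gaps are not read as differences. Single libraries decided these values. Without day 6, which left the lone day 3 library on the late side, *Col3a1* fell by 2.76 on the log2 scale. Without day 1 replicate 1 the *Col1a1* difference was -0.26. Within the single index libraries there was 1 library on each side, as within the dual index libraries, and with library structure as a term in the fit *Col1a1* stood at -1.34 with 0 of 8 genes called.

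The tumor CAF-like sums were then compared with the single normal fibroblast-like sum, which was assumed to vary as the tumor sums did. With 1 normal library, no p-value of this or the next comparison, pathway genes included, covers the spread between normal colons. edgeR called 0 of 8 collagen genes, against 2.53% of all genes (145 of 5724), and so did DESeq2. Of the differences, 7 were below zero, and the median of the 8 was -0.95 against 0.14 over all genes. *Col3a1* had a log2 fold change of -1.58 (-3.79 to 0.62, adjusted p = 0.586), *Col6a1* of -1.46 (-3.07 to 0.15, adjusted p = 0.415) and *Col1a2* of -1.40 (-3.54 to 0.74, adjusted p = 0.636). *Col6a3* was the gene above zero, at 1.5 (-0.33 to 3.34, adjusted p = 0.487), and *Col1a1* was at -0.10 (-2.40 to 2.19). *Col1a1* and *Col5a2* were above zero when libraries were scaled by total counts alone, at 0.28 and 0.21, a scaling that also put the median of all genes at 0.50.

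Against the single normal telocyte-like sum *Col6a1* and *Col6a2* were the furthest down of the 8 genes. *Col6a1* had a log2 fold change of -2.30 (-3.90 to -0.70, adjusted p = 0.157) and *Col6a2* of -2.20 (-3.79 to -0.62, adjusted p = 0.170). edgeR called 0 of 8 genes, against 1.69% of all genes (98 of 5782). At an unadjusted p under 0.05 edgeR had 2 of 8, against 736 of all 5782 genes. DESeq2 called *Col6a1* (adjusted p = 0.0235) and *Col6a2* (adjusted p = 0.0381), and 2.37% of all genes (137 of 5782). *Col1a2* was at -1.70 (-3.87 to 0.47), *Col3a1* at -1.22 and *Col6a3* at 0.42 (-1.34 to 2.17), and the median of the 8 was -0.88 against 0.14 over all genes. The comparisons share the tumor libraries, so they are not separate evidence of direction.

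**Figure D5:**
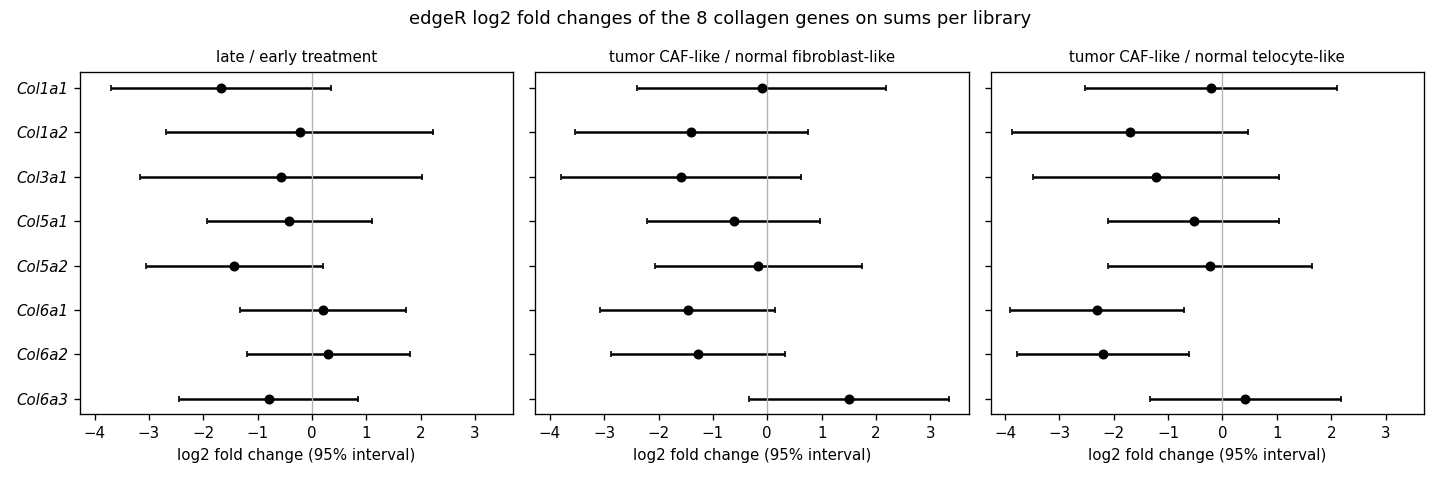
Log2 fold changes of the 8 collagen genes from edgeR with 95% intervals, for late against early treatment, tumor CAF-like against normal fibroblast-like cells, and tumor CAF-like against normal telocyte-like cells. Only *Col6a1* (-3.90 to -0.70) and *Col6a2* (-3.79 to -0.62) against telocyte-like cells have intervals that leave out zero, and no gene passed the adjusted threshold.

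Genes of the same pathway were read from fixed lists. None of their tested members was called between late and early treatment, and the called genes below come from the comparisons with the normal sums. Of the other fibrillar and type VI chains, 2 of 9 were tested against fibroblast-like cells with 0 called. *Col5a3*, a type V chain, had 896, 863, 500.3 and 419.9 CPM in the tumor libraries of day 1 replicate 1, day 1 replicate 2, day 3 and day 6, against 177 in telocyte-like, 219.6 in fibroblast-like and 463 in pericyte-like cells. *Col27a1* had 46.5 to 305 CPM in the tumors and 157 in fibroblast-like cells, and *Col24a1* 19.1 to 61.1 and 18.5. Of the fibril-associated collagens, which sit on fibril surfaces, 3 of 10 were tested with 0 called, and *Col14a1* had 0, 12.6, 23.3 and 210.0 CPM in the tumor libraries against 648 in fibroblast-like cells. *Col16a1* had 34.9 to 265 CPM in the tumors against 159, and *Col12a1* 40.7 to 92.6 against 21.2.

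Genes of chain folding and modification gave 0 calls among 13 of 20 tested against fibroblast-like cells and 0 among 14 against telocyte-like cells. *Serpinh1*, the collagen chaperone HSP47, had 244 to 973 CPM in the tumors against 1226 in fibroblast-like cells, *P4hb*, a subunit of prolyl 4-hydroxylase, 302 to 636 against 599, and *Crtap* 79.9 to 191 against 217. Propeptide processing gave 0 calls among 5 of 8 tested. *Adamts2*, which trims the amino end of procollagen, had 692, 379, 11.6 and 134 CPM in the tumor libraries against 376, while *Pcolce* had 139.6 to 375 against 377 and *Bmp1* 34.9 to 189 against 106. Cross-linking gave 0 calls among 4 of 6 tested, with *Loxl2* at 175 to 651 CPM in the tumors against 487, *Tgm2* at 81.4 to 419.9 against 723 and *Loxl1* at 46.5 to 235 against 648.

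Genes that organise fibrils held most of the calls, with 3 of 11 tested lower in the tumors than in fibroblast-like cells (1.64% of all genes were called lower) and the same number against telocyte-like cells (1.31% of all genes). *Lum*, lumican, a proteoglycan that spaces fibrils, had 0, 0, 0 and 25.5 CPM in the tumor libraries in the order used above, 791 CPM in fibroblast-like cells (adjusted p = 0.00322) and 484 in telocyte-like cells (adjusted p = 0.00648). *Ogn*, osteoglycin, had 0, 0, 0 and 38.2 CPM in the tumors, 302 in fibroblast-like (adjusted p = 0.0225) and 1259 in telocyte-like cells (adjusted p = 0.00372). *Aspn*, asporin, had 0, 29.5, 0 and 6.36 CPM in the tumors, 142 in fibroblast-like (adjusted p = 0.0496) and 261 in telocyte-like cells (adjusted p = 0.0201). DESeq2 did not call *Lum* (adjusted p = 0.616 and 0.642) or *Ogn* (0.864 and 0.618) and gave no adjusted p for *Aspn*. In the dual index libraries alone, with 2 tumor libraries, edgeR called none of the 3 against telocyte-like cells (adjusted p = 0.116 to 0.120), and *Aspn* against fibroblast-like cells also missed the threshold without day 1 replicate 1 (adjusted p = 0.0648). In the tumor sums *Lum*, *Ogn* and *Aspn* were too low for the filter on low counts, which they passed through the normal sum alone. Lower was thus the only call open to these 3 genes. The 3 most abundant genes of that list were not called: *Sparc* had 3164 to 6533 CPM in the tumors against 7157 in fibroblast-like cells, *Dcn*, decorin, 3316 to 7889.6 against 12174, and *Postn*, periostin, 139.6 to 1749.7 against 3452.

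Of the degradation and uptake genes, 1 of 6 tested was higher in the tumors in each comparison (0.891% and 0.38% of all genes were called higher). That gene was *Mmp13*, a collagenase of fibrillar collagens, at 5068, 3820.5, 442 and 2666 CPM in the tumor libraries (adjusted p = 0.0134 against fibroblast-like and 0.0345 against telocyte-like cells). It had no count in fibroblast-like cells, where 3 counts would be 3.97 CPM, and 3.84 CPM in telocyte-like cells. *Mmp13* thus passed the filter on low counts through the tumor sums alone, and higher was the only call open to it. Against telocyte-like cells the call was lost without day 1 replicate 1 (adjusted p = 0.0655) and in the dual index libraries alone (0.0983). *Mmp2* had 346 to 751 CPM in the tumors against 643 in fibroblast-like cells and *Mmp14* 93.1 to 346 against 95.2.

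Of the collagen receptors, 0 of 7 tested were called against fibroblast-like cells and 1 of 7 was lower against telocyte-like cells: *Itga11*, an integrin that binds fibrillar collagen, had 6.36 to 20.4 CPM in the tumors against 154 in telocyte-like cells (adjusted p = 0.0345). That call was lost without day 1 replicate 2 (adjusted p = 0.0754), without TMM factors (0.0512) and in the dual index libraries alone (0.0714). *Itga11* also passed the filter on low counts through the normal sum alone, so lower was the only call open to it. *Itgb1* had 372 to 997 CPM in the tumors against 656 in fibroblast-like cells, *Antxr1* 81.4 to 369 against 324, and *Ddr2*, a receptor tyrosine kinase for collagen, 46.5 to 172 against 417. Of the TGF-beta genes, 1 of 10 tested was lower in the tumors than in fibroblast-like cells: *Ctgf*, connective tissue growth factor, had 163, 159.9, 175 and 121 CPM in the tumors and 2151 in fibroblast-like cells, a log2 fold change of -4.16 (adjusted p = 0.00470), and 238 in telocyte-like cells. *Ctgf* was called under all 14 alternatives run. *Tgfbr2* had 92.6 to 382 CPM in the tumors against 496 in fibroblast-like cells.

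Over 54 sums of a cell type in a library, with at least 10 cells each, the 8 genes rose and fell together. The sums included epithelial, immune and endothelial cells, where these genes were low, so the values include the contrast of stromal with other cells. Correlations over the stromal sums alone were not computed. Their log2(CPM + 10) values correlated with the mean of the 8 at 0.898 for *Col6a3* to 0.981 for *Col1a1*, and the closest pair was *Col1a2* and *Col6a2* at 0.976. The genes whose pattern was most like the mean, among 13330 genes, were *Sod3* (0.950), *Bmp4* (0.935), *Loxl1* (0.935), *Ddr2* (0.932), *Crispld2* (0.929), *Pdgfra* (0.919), *Foxf1* (0.919), *Foxf2* (0.916), *Pdgfrb* (0.905) and *Postn* (0.898). *Pdgfra* and *Pdgfrb* were among the markers that named the stromal cell types, so their likeness was partly set by the naming. These values describe sums that share libraries and depth. Among single cells the median correlation of the pairs was 0.494 in CAF-like cells, on sparse counts. It was 0.367 for pericyte-like, 0.258 for telocyte-like, 0.183 for fibroblast-like and 0.138 for myofibroblast-like cells. The CAF-like cells were a mix of subsets with unlike collagen levels, and the part of that mix in the correlation was not tested.

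*Col5a2* left this shared pattern in squamous, blood endothelial and lymphatic endothelial cells of the tumors. In the squamous epithelial cells of the tumors it stood at 45.3, 27.1, 8.61 and 23.3 CPM at day 1 replicate 1, day 1 replicate 2, day 3 and day 6, or 22.6 (19.3 to 26.4) pooled, while the columnar cells pooled had 2.14 (1.51 to 2.93). *Col1a1* did not show this, at 5.73 CPM in squamous and 5.74 in columnar cells. Blood endothelial cells of the tumors had 55.0 CPM (40.0 to 73.9) *Col5a2* against 10 *Col1a1*, and 35 of the 44 *Col5a2* counts came from day 1 replicate 2. A single cell held 15 of these counts, and the level was 36.7 CPM without it. Lymphatic endothelial cells of the tumors had 34.5 CPM (21.1 to 53.2) *Col5a2* against 8.62 *Col1a1*. There a single cell held 9 of 20 *Col5a2* counts, which left 19.5 CPM without it. In normal glial cells, of which there were 18, *Col6a1* was at 529 CPM and *Col5a1* at 183 CPM, against 44.6 and 13.2 in normal columnar cells, but lymphatic endothelial cells of that library also had 415 CPM *Col6a1*. The part of free RNA in them was not tested.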

How the data were processed

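The deposited files held UMI counts per gene and cell from inDrop single-cell RNA-seq. Per the study's methods, the authors aligned reads to GRCm38 with dropEst and deposited raw counts, which were used as deposited. The files gave 748 cells at day 1 replicate 1, 2403 at day 1 replicate 2, 1419 at day 3, 2826 at day 6 and 1095 in the normal stroma after the limits of 500 genes and 15% mitochondrial counts, with 5124405 to 16786230 UMIs per library. Depth limits a level in a group of cells to its counting interval.

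The 8 genes and the pathway lists were chosen with earlier results of these data known. Cells of the treated and the normal libraries were clustered separately (2000 variable genes without collagen or list genes, 20 principal components, 20 neighbours, Leiden resolution 1, leidenalg 0.10.2). A cluster was named where its markers rose by a mean log2 fold of at least 1 over other cells and at least 3 were 2-fold higher. That threshold, a second pass for epithelial cells, the regrouping of CAF-like cells (10 components, resolution 2) and its use of normal fibroblast markers were set after the clusters were seen. Names rebuilt in this way may differ from the study's. Scrublet (scanpy 1.11.5) called 19 cells, too few to rely on, so doublets were kept and the top 6% of scores removed only as an alternative.

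Counts were summed per cell type and library where at least 10 cells were present. Levels are CPM with exact Poisson 95% intervals, ratios have exact binomial 95% intervals, and shares of cells came from cells thinned to 1000 UMIs. Sums were tested with the quasi-likelihood test of edgeR 4.0.16 (TMM scaling, filterByExpr) in R 4.3.3, with Benjamini-Hochberg adjustment over all genes tested and a threshold of 0.05. The test was tried on simulated counts before use. DESeq2 1.42.0, no TMM factors, no filter, each library left out, Leiden resolution 2, removal of high doublet scores, cells of at least 1000 UMIs, library structure as a term, day as a number and the dual index libraries alone were alternatives. The 8 genes were named in every comparison, list genes where called or among the 3 most abundant of a list, and the 10 genes most like the 8 by Pearson correlation. The values of 1 list gene are not reported here. The study calls both day 1 libraries biological replicates of early treatment, and day 3 and day 6 those of late treatment, while the labels tie no library to a mouse. P-values measure the spread between these libraries.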

Additional observations from a re-analysis of the deposited data

Results flagged for a closer look

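The *Col1a1* level of CAF-like cells was flagged because 1 of the 4 tumor libraries stood far from the others: day 1 replicate 1 had 10522 CPM, and its gap to the nearest library was 0.921 of the whole range. Of 14 such groups of 4 libraries, 1 passed the limit, and chance flags about 1 in 20. That library held 14 CAF-like cells, a single cell held 51.5% of the counts, and the level was 5577 CPM without that cell.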

How the results depend on the processing

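No paired analysis was possible because replicate numbers were given within day 1 alone and link no libraries of the groups compared.

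Between late and early treatment 0 of the 8 genes were called. Leaving out a library there left 1 library on 1 side, so for those fits fold changes alone are given for the 8 genes. DESeq2 called 2 genes against telocyte-like cells, where it called 2.37% of all genes. Apart from the late against early fits with a library left out, 0 of 8 were called in each comparison under the other alternatives run. These included 2 chosen after the data were seen, without the pericyte-like and myofibroblast-like subsets and without 4 cells led by globin genes. Signs turned for genes near zero. For late against early treatment, leaving out each library gave log2 fold changes of -1.46 to 1.66 for *Col1a2*, -2.76 to 0.74 for *Col3a1*, -0.90 to 0.21 for *Col5a1*, -0.43 to 0.69 for *Col6a1* and -0.15 to 0.96 for *Col6a2*. *Col1a2* was at 0.063 with high doublet scores removed, 0.017 with library structure as a term and 0.070 per day with day as a number, where *Col3a1* was at 0.033. Against fibroblast-like cells, leaving out each library gave -1.03 to 0.15 for *Col1a1* and -0.59 to 0.13 for *Col5a2*, no TMM factors gave 0.28 and 0.21, and the dual index libraries alone gave 0.18 for *Col5a2*. Against telocyte-like cells, leaving out each library gave -1.13 to 0.078 for *Col1a1*, -0.63 to 0.092 for *Col5a2* and -0.11 to 0.62 for *Col6a3*, and the dual index libraries alone gave 0.15 for *Col5a2*. The cause was not tested.

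Of the list genes, *Ctgf* and *Mmp13* against fibroblast-like cells kept their calls in all 14 alternatives each, and no list gene called turned its sign. *Aspn* against fibroblast-like cells also lost its call without TMM factors, with high doublet scores removed and without the cells led by globin genes, and *Itga11* without the pericyte-like and myofibroblast-like subsets.

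Counts over all genes moved more. Late against early treatment they were 9 by DESeq2, 38 with no filter and 3 to 137 with a library left out. Against fibroblast-like cells they were 453 with no filter, 112 to 484 with a library left out and 393 in the dual index libraries alone, and against telocyte-like cells 340, 65 to 346 and 0. Of 64 levels, 49 stayed within their counting intervals without the cell richest in counts, and 63 or 64 under the other 4 alternatives. The levels of subsets without their richest cell were added after the data were seen. Against fibroblast-like cells, DESeq2 called 101 genes higher and 64 lower, where edgeR called 51 and 94. With a single normal library and 14 to 53 CAF-like cells per tumor library, differences under about the width of the intervals given could not be seen.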
